A study of Homo sapiens with 36 samples.

Results

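LNCaP cells held in olaparib plus enzalutamide were compared at 24 h and at 8 h, to follow the early course of the transcriptome under both drugs together. The members were the libraries labelled as combination cultures at these hours, 3 at 8 h and 3 at 24 h, which made 6 of the 36 libraries of the series. Every culture of both groups received 3 µM olaparib and 3 µM enzalutamide and was grown in RPMI medium with fetal bovine serum, so the groups differed in the hours of exposure. LNCaP is a single established line of human prostate cancer that depends on the androgen receptor and carries a mutated but active form of it. The series also held cultures labelled DMSO, enzalutamide alone and olaparib alone, with 3 cultures of each at every hour, and their 24 h against 8 h courses served as comparisons. The DMSO course was measured over the same hours without either drug.

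Enzalutamide blocks the androgen receptor, a hormone-bound transcription factor that in luminal prostate cells switches on secretory genes such as the kallikreins and several lipid enzymes, and holds other genes down. Olaparib inhibits PARP1 and PARP2, enzymes that sense broken DNA strands, and traps them on DNA, which in dividing cells damages replication forks and can activate p53. Entry into S phase is driven by E2F factors, whose targets encode the replication machinery. The genes of mitosis are switched on later by the MuvB complex with MYBL2 and FOXM1, through an element called CHR. Their promoters often hold CCAAT boxes as well.

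Upstream sequences are shown for 6 genes that fell, from the androgen-induced, DNA replication and mitotic genes described below. KLK3 and KLK2 were chosen by name. DTL, E2F2, PTTG1 and SPC25 were picked among called fallers whose sequences hold the marked words. Their matches were thus fixed by the choice and do not show how common the words are. The sequences are the 250 bases before the start site, 5′ to 3′ on the strand of the gene, from RefSeq on GRCh38.p14. Capitals mark a word of the androgen receptor element (AGAACA or GGAACA) in KLK3 and KLK2, an E2F word (TTTCCCGC, TTTGGCGC, TTTCGCGC or TTTGCCGC) in DTL and E2F2, and a CCAAT box (CCAAT) or a CHR word (TTTGAA or TTTAAA) in PTTG1 and SPC25, each searched on both strands.
KLK3, chr19:50854665-50854914, plus strand: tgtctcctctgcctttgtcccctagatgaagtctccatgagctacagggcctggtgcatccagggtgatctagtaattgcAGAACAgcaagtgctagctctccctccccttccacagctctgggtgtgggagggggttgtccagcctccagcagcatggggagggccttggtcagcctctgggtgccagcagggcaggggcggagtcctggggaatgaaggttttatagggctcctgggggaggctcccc
KLK2, chr19:50873189-50873438, plus strand: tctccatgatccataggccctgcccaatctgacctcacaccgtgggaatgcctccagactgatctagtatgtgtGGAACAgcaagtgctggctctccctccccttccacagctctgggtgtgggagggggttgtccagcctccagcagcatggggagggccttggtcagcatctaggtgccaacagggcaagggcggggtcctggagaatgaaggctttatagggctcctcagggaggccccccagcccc
DTL, chr1:212035498-212035747, plus strand: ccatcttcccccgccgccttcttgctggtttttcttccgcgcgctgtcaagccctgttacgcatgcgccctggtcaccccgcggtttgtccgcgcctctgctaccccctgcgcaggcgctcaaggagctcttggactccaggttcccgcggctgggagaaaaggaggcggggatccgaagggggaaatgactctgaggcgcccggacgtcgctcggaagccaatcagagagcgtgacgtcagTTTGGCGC
E2F2, chr1:23531234-23531483, minus strand: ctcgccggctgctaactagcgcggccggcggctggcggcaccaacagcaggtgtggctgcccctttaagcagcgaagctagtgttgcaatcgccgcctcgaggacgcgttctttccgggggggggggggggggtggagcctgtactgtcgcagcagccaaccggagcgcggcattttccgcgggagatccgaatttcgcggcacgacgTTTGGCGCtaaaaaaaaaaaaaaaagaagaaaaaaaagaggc
PTTG1, chr5:160421605-160421854, plus strand: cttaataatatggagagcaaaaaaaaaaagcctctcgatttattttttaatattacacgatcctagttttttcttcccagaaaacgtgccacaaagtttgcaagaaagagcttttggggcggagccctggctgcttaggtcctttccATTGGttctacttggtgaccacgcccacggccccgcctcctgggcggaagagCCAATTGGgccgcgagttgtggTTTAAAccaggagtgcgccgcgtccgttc
SPC25, chr2:168890431-168890680, minus strand: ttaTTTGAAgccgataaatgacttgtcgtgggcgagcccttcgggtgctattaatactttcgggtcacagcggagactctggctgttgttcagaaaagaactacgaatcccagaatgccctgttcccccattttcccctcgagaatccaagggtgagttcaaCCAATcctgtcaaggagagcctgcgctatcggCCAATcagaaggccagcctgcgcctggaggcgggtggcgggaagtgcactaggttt
The androgen receptor word began at -170 from the start site in KLK3 and at -176 in KLK2. The windows of KLK2 and SPC25 lie inside the longer Ensembl gene models, and that of DTL overlaps the start of its model. The E2F word began at -8 in DTL and at -42 in E2F2. In PTTG1 a CCAAT box on each strand overlapped, at -51 and -48, and the CHR word TTTAAA, which reads the same on both strands, began at -29. These are matches of letters and do not show binding.

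The libraries held 9732081, 10912041 and 5392356 counts at 8 h and 8624025, 5992007 and 11508528 counts at 24 h. Replicate cultures correlated at 0.985 to 0.992 over the genes tested. The third 8 h culture and the second 24 h culture were the shallowest and were sequenced in the same lane, and the third 8 h culture stood apart on the first principal component, at -37.6 against -6.32 and -4.73 for the other 8 h cultures and 10.6 to 20.3 for the 24 h cultures. Each of the 3 lanes held 1 library of each group. Mitochondrial genes took 4.77 to 5.49% of the counts at 8 h and 5.4 to 5.93% at 24 h, and their part in the results was not tested. Markers of luminal prostate epithelium were present in all 6 libraries, with KRT8 at 492 to 578 CPM (counts scaled to library size, with TMM factors) and HOXB13 at 541 to 634 CPM. At 0 in all 6 were 2 of 3 basal markers (KRT5 and TP63), 2 of 7 stromal markers (COL1A2 and DCN), 2 of 4 endothelial markers (PECAM1 and CDH5) and 3 of 9 blood markers (CD3E, HBA1 and LYZ). KRT14 (0.116 to 0.81 CPM), VWF (3.48 to 5.9 CPM), ITGAM (0.347 to 0.783 CPM) and SYP (1.18 to 2.51 CPM) were above 0 in every library. The summed basal level was 0.542 to 0.81 CPM at 8 h and 0.116 to 0.334 CPM at 24 h, the endothelial 5.16 to 5.9 and 3.57 to 5.01 CPM, the blood 0.368 to 0.814 and 0.347 to 1.04 CPM, and the neuroendocrine 1.27 to 1.84 and 1.97 to 2.52 CPM. The summed level of the stromal markers was 29.5 to 35.6 CPM at 8 h and 39.5 to 43.5 CPM at 24 h, most of it from COL1A1 and ACTA2. The part of these markers in the results was not tested. In bulk RNA, fewer cells of a type and less RNA per cell cannot be told apart.

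Under both drugs 1282 of the 15744 genes tested changed between 8 h and 24 h (8.14%, adjusted p below 0.05 by edgeR's quasi-likelihood test, the rule for a call throughout). Of these, 601 were higher at 24 h (3.82%) and 681 lower (4.33%), and the median over all genes tested was 0.001 on the log2 scale. Most changes were small. The median fold was 1.29 in either direction, 473 risers and 563 fallers moved by less than 1.5-fold, and 100 called genes reached 2-fold (0.635%), 54 higher (0.343%) and 46 lower (0.292%). In 4305 genes (27.3%) the cultures of the 2 hours did not overlap, and 1250 of the 1282 called genes were among them (97.5%). An unadjusted p below 0.05 was reached by 3139 genes (19.9%). Without the first 24 h culture 759 genes were called.

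**Figure D1:**
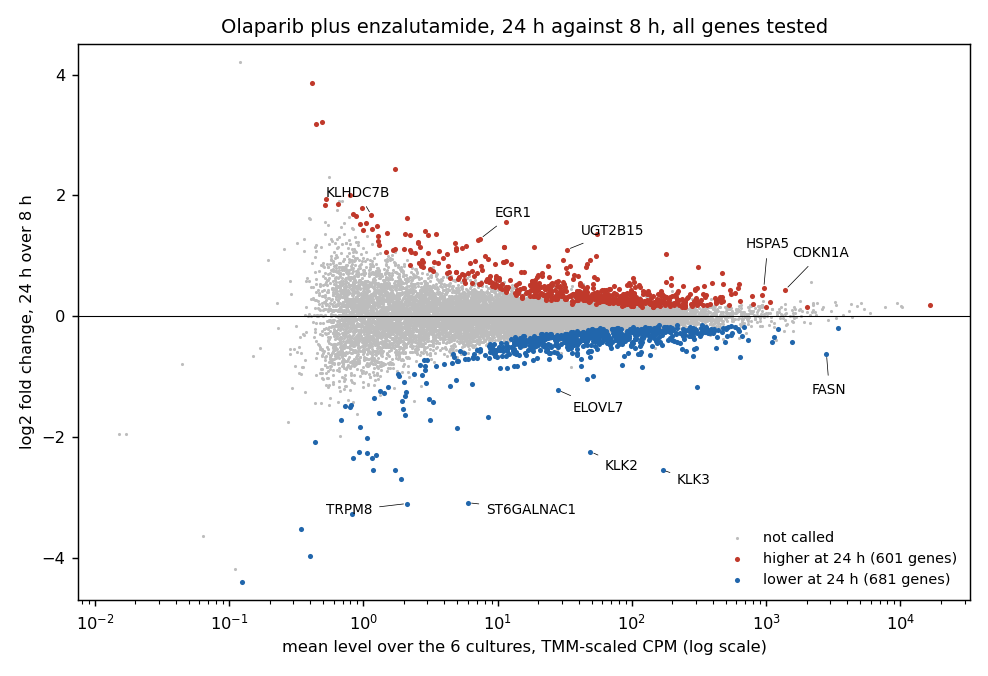
Each point is 1 of 15744 genes, with the mean level over the 6 both-drug cultures (TMM-scaled CPM, log axis) against the log2 fold change from 8 h to 24 h; red and blue points were called higher (601) and lower (681), and grey points were not called. KLK3 and KLK2 lie at -2.54 and -2.24 and FASN, at a higher level, lies at -0.62.

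Androgen-induced genes fell widely and made up 5 of the 14 largest falls. Of 48 measured, 22 fell and 3 rose, with a median of -0.34. KLK3, which encodes prostate-specific antigen (ENSG00000142515, chromosome 19, 50854915 to 50860764 on GRCh38), measured 297, 302 and 267 CPM at 8 h and 54.5, 42.3 and 50.8 CPM at 24 h. All 24 h cultures lay far below the 8 h cultures, with a log2 fold change of -2.54 ± 0.11 (SE; edgeR adjusted p = 7.12e-19). KLK2, the neighbouring kallikrein, measured 83.4, 90.0 and 69.9 CPM at 8 h and 21.6, 12.7 and 16.7 CPM at 24 h, again without overlap (-2.24 ± 0.12, edgeR adjusted p = 1.30e-16). The kallikreins KLK4 and KLK15 of the same cluster fell as well, KLK4 from 421 ± 19.9 to 186 ± 6.41 CPM (SD, n = 3) and KLK15 from 3.07 ± 0.597 to 0.985 ± 0.163 CPM. These 4 genes lie in 1 cluster on chromosome 19.

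Further members fell from low levels. TRPM8, a cold-sensing ion channel, had 32, 40 and 25 counts at 8 h and 3, 2 and 6 at 24 h, a level 8.73-fold lower with a 95% counting interval of 4.67 to 18.1. HPGD, which breaks down prostaglandins, had 21, 15 and 6 counts and then 0, 0 and 4, 10.4-fold lower with an interval of 3.77 to 39.9. CHRNA2, a nicotinic receptor subunit, had 51 counts over the 8 h cultures and 10 over the 24 h cultures, 5.05-fold lower with an interval of 2.54 to 11.2. The groups did not overlap in any of the 3 genes, and the intervals cover counting error only.

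The transporter gene SLC45A3 measured 62.9, 62.4 and 52.8 CPM at 8 h and 37.9, 36.6 and 38.1 CPM at 24 h (-0.67 ± 0.09, edgeR adjusted p = 1.75e-06). The steroid receptor chaperone FKBP5 (-0.42 ± 0.07) and the protease TMPRSS2 (-0.27 ± 0.06) also fell without overlap. ACP3, prostatic acid phosphatase, was among the 3 members that rose, from 16 ± 0.597 to 26.7 ± 2.03 CPM, beside the transcription factor MAF (0.44 ± 0.13) and PMEPA1 (0.32 ± 0.09), which shares exons with NKILA. Without the first 24 h culture 1 member was called higher. A promoter was matched for 35 of the 48 members, under 80%. The androgen receptor word lay in 3 of these 35 (8.6%), KLK3 and KLK2 among them, a share that cannot stand for the whole list. The word lay in 22.2% of all 27305 promoters in the table and in 15.2% of the 10735 matched to genes tested. The genes tested had 15742 symbols, so they too were matched only in part.

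Androgen-repressed genes moved the other way. Of 20 measured, 10 rose and 0 fell, with a median of 0.50, where 3.82% of all genes tested rose. Members of this list, like those of the others, were chosen with earlier results of these data known. UGT2B15, which conjugates androgens with glucuronic acid, measured 20.7, 20.9 and 20.7 CPM at 8 h and 42.2, 47.9 and 44.3 CPM at 24 h (1.1 ± 0.11, edgeR adjusted p = 2.55e-09). UGT2B11 rose by 1.13 ± 0.19, and because this family is nearly identical in sequence the split of reads between its members is uncertain. KCNU1, a potassium channel gene, rose from 1.61 ± 0.388 to 4.11 ± 0.46 CPM. The sucrase gene SI (0.92 ± 0.22) was not called in 1 of the 6 fits without 1 library (highest edgeR adjusted p = 0.109, without the third 24 h culture). IGFBP3, a binding protein of insulin-like growth factors (0.90 ± 0.24), was not called in 2 of the 6 fits without 1 library (highest edgeR adjusted p = 0.0839, without the first 8 h culture).

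Other steep falls were of genes with varied roles. ST6GALNAC1, a sialyltransferase that makes the sialyl-Tn antigen, measured 10.8, 11.2 and 10.3 CPM at 8 h and 1.51, 1.00 and 1.22 CPM at 24 h (-3.09 ± 0.23, edgeR adjusted p = 2.24e-12). TRGC1, a T-cell receptor gamma constant gene whose family shares reads, changed by -2.7 ± 0.32. DPP4, a cell surface peptidase, fell from 4.74 ± 0.595 to 1.48 ± 0.199 CPM, and F5, which encodes coagulation factor V, fell from 12.8 ± 0.921 to 4.03 ± 0.273 CPM. DHRS2, a reductase, fell from 7.96 ± 2.43 to 2.05 ± 0.454 CPM, and NAV3 and KRT6C changed by -2.54 and -1.54 at levels below 3 CPM. PSLNR (-2.01 ± 0.55) was not called in 3 of the 6 fits without 1 library (highest edgeR adjusted p = 0.0763, without the first 24 h culture), and PGC (-1.59 ± 0.39), the pepsinogen C gene, was not called in 1 of the 6 fits without 1 library (highest edgeR adjusted p = 0.0525, without the first 24 h culture).

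The 14 largest rises were mostly of genes at low levels. EGR1, an immediate early transcription factor, measured 4.46, 4.44 and 3.88 CPM at 8 h and 9.51, 11.2 and 10.9 CPM at 24 h (1.28 ± 0.17, edgeR adjusted p = 2.15e-06). NIPSNAP3A, a gene chosen after its values were seen, rose from 119 ± 8.51 to 241 ± 8.11 CPM. KLHDC7B (1.68), FAM131B (1.62), SHISA9 (1.37), the cytidine deaminase gene APOBEC3H (1.34) and the mannosidase gene MAN1A1 (1.26) also rose and kept their calls without any 1 library. Calls of 5 of the 14 were lost in at least 1 such fit. ARNT2-DT was not called in 6 of the 6 such fits, SH3BP5, which shares exons with SH3BP5-AS1, in 5, PLA2G4D in 4, and USP6 and SLC6A20 in 1 each, with highest edgeR adjusted p of 0.246, 0.164, 0.273, 0.0708 (without the first 24 h culture) and 0.05 (without the third).

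DNA replication genes had the largest share of called members among the 32 lists in edgeR. In DESeq2 fatty acid synthesis genes had a larger share, 16 of 21 against 44 of 62. Of the 62 replication genes measured, 45 fell and 0 rose in edgeR, all 62 estimates were negative, and the median was -0.37. MCM2, a subunit of the replicative helicase, measured 137, 137 and 134 CPM at 8 h and 102, 99.1 and 103 CPM at 24 h (-0.42 ± 0.08, edgeR adjusted p = 0.000332). The subunits MCM3 (-0.34), MCM4 (-0.48), MCM5 (-0.43), MCM6 (-0.48) and MCM7 (-0.31) fell with it. MCM8, a helicase used in recombination, fell from 18.1 ± 0.197 to 9.99 ± 1.43 CPM. CDC45, which completes the helicase, changed by -0.73 ± 0.13, the licensing ligase subunit DTL by -0.65 ± 0.10, the chromatin factor ATAD2 by -0.65 ± 0.07 and the transcription factor E2F2 by -0.62 ± 0.13. DTL shares exons with INTS7. The sliding clamp PCNA (-0.30), the reductase subunit RRM2 (-0.49) and E2F1 (-0.43) were called lower as well, whereas CDT1 (-0.08) and CCNE1 (-0.03) were not called.

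E2F words like those printed for DTL and E2F2 lay in 18 of the 52 replication promoters matched (34.6%), and in 2 of 53 mitotic promoters (3.8%). Their share was 4.4% among the 10735 promoters matched to genes tested and 2.8% among all promoters. A CHR word lay in 34 of the 53 mitotic promoters (64.2%), in 4 of the 52 replication promoters (7.7%), in 13.7% of those of genes tested and in 22.1% of all. CCAAT boxes lay in 59.6% of the replication promoters, 69.8% of the mitotic promoters, 35.5% of those of genes tested and 33% of all.

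Mitotic genes fell less evenly. Of 61 measured, 26 fell and 0 rose, 57 estimates were negative, and the median was -0.27. Between 18 and 28 were called lower without 1 library. MYBL2, the MuvB partner that turns on late cell cycle genes, measured 139, 139.8 and 138 CPM at 8 h and 92.1, 90.2 and 87.8 CPM at 24 h (-0.63 ± 0.06, edgeR adjusted p = 2.02e-10). PTTG1, which encodes securin, measured 113, 106 and 120.1 CPM at 8 h and 72.7, 72.3 and 77.3 CPM at 24 h (-0.60 ± 0.06, edgeR adjusted p = 8.45e-10). The checkpoint gene MAD2L1 (-0.60), the kinetochore gene NUF2 (-0.51), the kinase CDK1 (-0.35), BIRC5 (-0.46) and FOXM1 (-0.41), which shares exons with ITFG2, fell too. SPC25, another kinetochore gene (-0.54 ± 0.16), was not called in 4 of the 6 fits without 1 library (highest edgeR adjusted p = 0.127, without the first 24 h culture). MKI67, the Ki-67 antigen (-0.43 ± 0.11), was not called in 2 of the 6 fits without 1 library (highest edgeR adjusted p = 0.0921, without the third 8 h culture).

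Other mitotic regulators were not called. CDC20, which activates the anaphase-promoting complex, measured 61.7, 58.1 and 59.8 CPM at 8 h and 65, 60.9 and 68.5 CPM at 24 h, with overlap (0.12 ± 0.06, edgeR adjusted p = 0.298). The mitotic cyclin CCNB1 measured 87.1, 84.9 and 91.2 CPM at 8 h and 74.7, 86.2 and 95 CPM at 24 h, also with overlap (-0.03 ± 0.07, edgeR adjusted p = 0.858). The values for the kinases PLK1 and AURKA and the ubiquitin enzyme UBE2C were -0.05, -0.15 and -0.05.

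Homologous recombination and Fanconi genes fell in 22 of 46, 0 rose and the median was -0.31, and 15 to 19 were called lower without 1 library. The translocase RAD54L changed by -0.70 ± 0.10, the helicase BRIP1 by -0.66 ± 0.14, RMI2 by -0.66 ± 0.14 and BRCA2 by -0.64 ± 0.15. RAD54L shares exons with LRRC41. FANCM (-0.60 ± 0.17) was not called in 4 of the 6 fits without 1 library (highest edgeR adjusted p = 0.176, without the first 24 h culture). The kinases ATM (0.03) and ATR (-0.18) were not called.

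Of 32 genes for PARP enzymes, base excision and end joining, 6 fell and 1 rose, with a median of -0.09. PARP1, a target of olaparib, measured 623, 618 and 602 CPM at 8 h and 516, 494 and 509 CPM at 24 h (-0.28 ± 0.06, edgeR adjusted p = 0.0029). PARP2, the other target (-0.27 ± 0.07), was not called in 1 of the 6 fits without 1 library (highest edgeR adjusted p = 0.0832, without the first 8 h culture). UNG, which removes uracil from DNA, fell from 78.8 ± 1.31 to 57.7 ± 2.65 CPM. PARP3 was the riser (0.31 ± 0.07) and was not called in 1 of the 6 fits without 1 library (highest edgeR adjusted p = 0.0515, without the first 24 h culture).

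p53 target genes rose in part. Of 46 measured, 13 rose and 3 fell, with a median of 0.14, and 7 were called higher without the first or the second 24 h culture and 8 without the second 8 h culture. CDKN1A, the cyclin kinase inhibitor p21, measured 1164, 1215 and 1157 CPM at 8 h and 1695, 1653 and 1453 CPM at 24 h (0.44 ± 0.06, edgeR adjusted p = 3.10e-06). TP53I3, a quinone reductase gene that shares exons with FAM228B, measured 11.9, 12.3 and 9.96 CPM at 8 h and 26.2, 26.9 and 24.1 CPM at 24 h (1.15 ± 0.14, edgeR adjusted p = 2.90e-07). The ferredoxin reductase FDXR rose by 0.53 ± 0.10 and the stress sensor SESN1 by 0.43 ± 0.07. MDM2, the ligase that degrades p53 (0.21 ± 0.06), was not called in 4 of the 6 fits without 1 library (highest edgeR adjusted p = 0.178, without the second 24 h culture). GDF15, a secreted stress cytokine, measured 1638, 1649 and 1593 CPM at 8 h and 2111, 1897 and 1835 CPM at 24 h and was not called (0.26 ± 0.10, edgeR adjusted p = 0.0937), though it was called without the low-count filter (edgeR adjusted p = 0.00302) and with the compared libraries only (edgeR adjusted p = 0.00147). The fallers included the cell cycle repressor E2F7 (-0.64 ± 0.13) and PMAIP1 (-0.35 ± 0.11), which was not called in 5 of the 6 fits without 1 library (highest edgeR adjusted p = 0.236, without the third 8 h culture). Of 24 BCL2 family and death receptor genes 2 rose and 2 fell, and each of these calls was lost in at least 1 fit without a library.

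**Figure D2:**
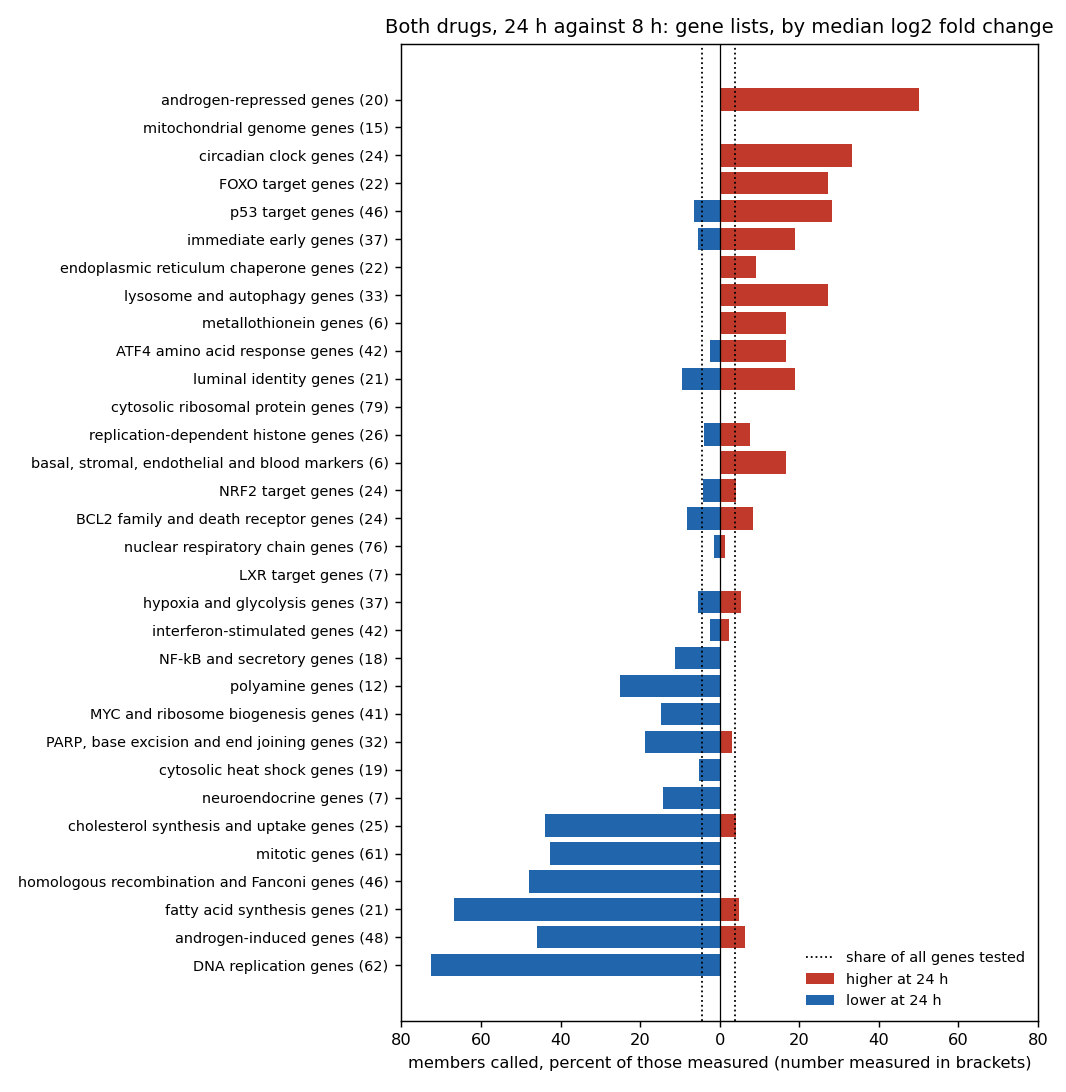
Bars give the percent of each list's measured members called higher (red, right) or lower (blue, left) at 24 h under both drugs, ordered by the median log2 fold change; dotted lines mark the shares over all genes tested, 3.82% and 4.33%. DNA replication genes (45 of 62) and fatty acid synthesis genes (14 of 21) reach furthest to the lower side, androgen-repressed genes (10 of 20) furthest to the higher side.

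Lipid synthesis genes fell, some of them from high levels. In fatty acid synthesis, 14 of 21 genes were called lower and 1 higher, and the list's median was -0.33. FASN, the fatty acid synthase, measured 3132, 3822 and 3262 CPM at 8 h and 2208, 2155 and 2281 CPM at 24 h (-0.62 ± 0.09, edgeR adjusted p = 7.60e-06). Its mean changed by -1190 CPM, the largest fall in CPM among the called genes. The desaturase SCD followed, from 1779 ± 74.7 to 1331 ± 30.2 CPM, and the elongases ELOVL7 and ELOVL5 changed by -1.22 ± 0.10 and -0.66 ± 0.06. SCD5 was the riser (0.47 ± 0.13) and was not called in 4 of the 6 fits without 1 library (highest edgeR adjusted p = 0.0762, without the first 24 h culture).

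Of 25 cholesterol synthesis and uptake genes 11 fell and 1 rose, with a median of -0.26. EBP, a sterol isomerase, measured 55, 54.1 and 46.3 CPM at 8 h and 30.6, 29.6 and 35 CPM at 24 h (-0.71 ± 0.11, edgeR adjusted p = 2.30e-05). The sterol sensor partner INSIG1 changed by -0.52 ± 0.06, ACAT2, which shares exons with TCP1, by -0.68 ± 0.10, and the synthase FDPS, which shares exons with RUSC1-AS1, by -0.52 ± 0.07. HMGCS1, an early enzyme of the pathway (-0.28 ± 0.08), was not called in 3 of the 6 fits without 1 library (highest edgeR adjusted p = 0.119, without the third 24 h culture). TM7SF2, which shares exons with VPS51, was the riser, from 284 ± 7.28 to 403 ± 13.6 CPM. Of 7 LXR target genes edgeR called 0, with 2 at an unadjusted p below 0.05, and DESeq2 called 1.

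Among 24 circadian clock genes 8 were called higher and 0 lower, the median was 0.20, and 5 were called without the first 8 h culture. PER2, a repressor of the clock, measured 15.1, 13.9 and 17 CPM at 8 h and 20.5, 20.1 and 24.1 CPM at 24 h (0.53 ± 0.10, edgeR adjusted p = 0.000472). PER3 rose by 0.50 ± 0.11 and CRY1 by 0.45 ± 0.10. PER1 (0.12), NR1D1 (0.00) and BMAL1 (-0.32) were not called. CIART (0.67 ± 0.18) was not called in 2 of the 6 fits without 1 library (highest edgeR adjusted p = 0.231, without the third 24 h culture).

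Among 33 lysosome and autophagy genes 9 were called higher and 0 lower, the median was 0.09, and 5 were called without the first 24 h culture. GPNMB, a lysosomal membrane glycoprotein, measured 5.78, 4.98 and 5.17 CPM at 8 h and 10.3, 13.2 and 9.07 CPM at 24 h (0.99 ± 0.16, edgeR adjusted p = 6.61e-05). SQSTM1, the autophagy receptor p62, rose from 514 ± 18.4 to 709.6 ± 16.2 CPM, though it shares exons with MGAT4B and MRNIP. LAMP1 and NEU1 rose by 0.29 and 0.29. FOXO target genes rose in 6 of 22, among them the PI3K inhibitor PIK3IP1 (0.65 ± 0.12) and FOXO3 itself (0.34 ± 0.05).

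Of 42 genes of the ATF4 amino acid response 7 rose and 1 fell, with a median of 0.07, and 2 were called higher without the first 24 h or the first 8 h culture and 4 without the second 24 h culture. DDIT3, the CHOP factor, rose by 0.55 ± 0.11, though it shares exons with MARS1. ATF4 itself was not called (0.16 ± 0.05, edgeR adjusted p = 0.0567), though it was called in edgeR with upper quartile scaling (adjusted p = 0.0423), with the compared libraries only (adjusted p = 0.0204) and with the lane block (adjusted p = 0.0486), and in DESeq2 (adjusted p = 0.0346). HSPA5, the chaperone BiP, measured 862, 777 and 775 CPM at 8 h and 1090, 1117 and 1134 CPM at 24 h (0.47 ± 0.07, edgeR adjusted p = 3.58e-06). It was 1 of 2 risers among 22 chaperone genes of the endoplasmic reticulum, and 6 were called with the compared libraries only. The other, HERPUD1 (0.16 ± 0.05), was not called in 5 of the 6 fits without 1 library (highest edgeR adjusted p = 0.275, without the second 8 h culture).

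Immediate early genes rose in 7 of 37 and fell in 2. Besides EGR1, IER5L rose by 1.15 ± 0.17 and JUND by 0.51 ± 0.11, and the differentiation factor KLF4 changed by -0.45 ± 0.11. MYC was not called (-0.06 ± 0.05, edgeR adjusted p = 0.556). The list of MYC targets and ribosome biogenesis held 6 fallers in 41, and 3 without the first 24 h culture. NF-kB and secretory genes fell in 2 of 18, the apoptosis inhibitor BIRC3 (-0.81 ± 0.16) and NFKB2 (-0.48 ± 0.08).

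Luminal identity genes gave 4 risers and 2 fallers in 21, with 2 risers in each fit without 1 library. FOLH1, the prostate-specific membrane antigen (0.35 ± 0.11), was not called in 6 of the 6 fits without 1 library (highest edgeR adjusted p = 0.122, without the second 24 h culture). Polyamine genes fell in 3 of 12, and in 2 without any 1 library, with ODC1, the first enzyme of polyamine synthesis, at -0.27 ± 0.05 and SRM, the spermidine synthase, at -0.27 ± 0.06.

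In the lists that follow, at most 4 members of any list were called. Interferon-stimulated genes gave 1 riser and 1 faller in 42, NRF2 targets 1 and 1 in 24, nuclear respiratory chain genes 1 and 1 in 76 and replication-dependent histone genes 2 and 1 in 26. Hypoxia and glycolysis genes gave 2 and 2 in 37, 0 fallers without any 1 of 4 libraries, and 11 fallers with the compared libraries only. Cytosolic heat shock genes fell in 1 of 19. In the metallothionein list 1 of 6 rose, SLC30A1, which is a zinc transporter gene and not a metallothionein. With 1 library left out, the calls of SLC30A1 and of the respiratory chain riser were each lost in 5 of 6 fits. The histone risers numbered 0 in 4 of 6. The heat shock call was lost without the first culture of either hour, and the interferon riser without the first 24 h culture. Of 79 cytosolic ribosomal protein genes edgeR called 0, with 7 at an unadjusted p below 0.05, all higher, and DESeq2 called 1. Over all genes tested, 19.9% had an unadjusted edgeR p below 0.05, a larger share than in this list. Of the 15 genes of the mitochondrial genome edgeR and DESeq2 called 0 and none had an unadjusted p below 0.05, but all 15 estimates were positive, the median was 0.20, and 11 were called with the compared libraries only and 8 without a filter. Among neuroendocrine genes STMN1, a microtubule regulator, fell (-0.44 ± 0.05), 1 of 7. COL1A1 was the 1 riser among 6 measured markers of basal, stromal, endothelial and blood cells, from 19.9 ± 1.6 to 28.2 ± 1.19 CPM.

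The 3 other courses share no library with the both-drug cultures. Under enzalutamide alone 1211 genes were called from 8 h to 24 h (7.69%), 482 higher (3.06%) and 729 lower (4.63%). In DMSO 102 were called (0.648%), 88 higher (0.559%) and 14 lower (0.0889%), and under olaparib alone 53 (0.337%), 43 higher (0.273%) and 10 lower (0.0635%). Across the 15744 genes the log2 fold changes under both drugs correlated at 0.44 with those under enzalutamide, at 0.144 with olaparib and at 0.104 with DMSO, as a description over genes that are not independent. Of the 601 both-drug risers 197 also rose under enzalutamide, 32.8% of the former and 40.9% of the enzalutamide risers. Of the 681 fallers 384 also fell under enzalutamide, 56.4% and 52.7% of the respective lists. No gene was called in opposite directions under both drugs and under enzalutamide.

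**Figure D3:**
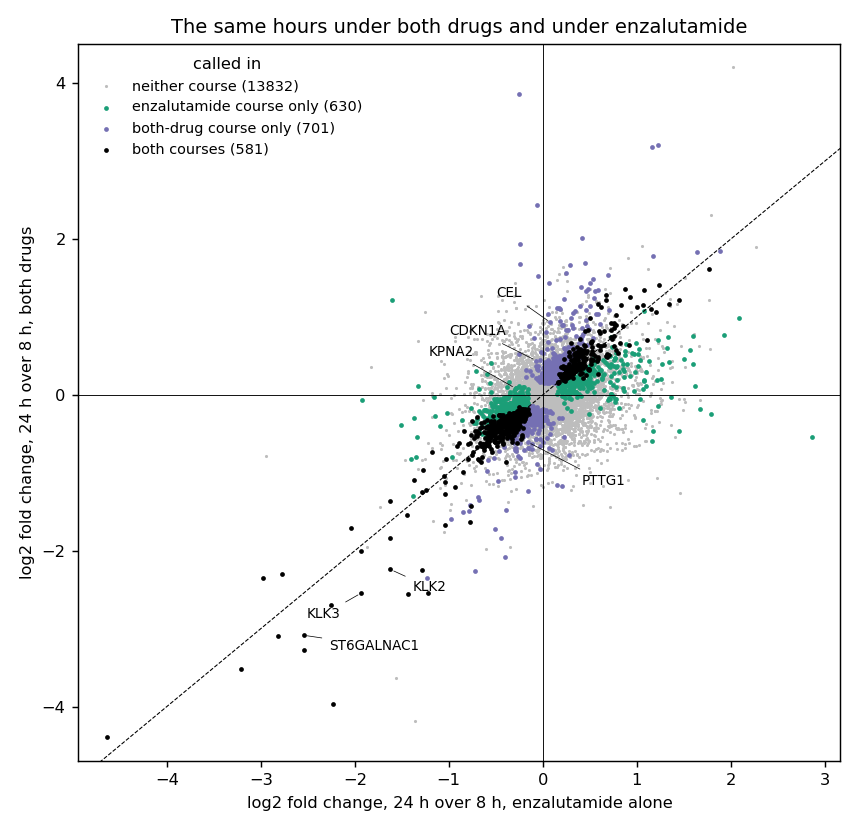
Each point is 1 of 15744 genes, with the log2 fold change from 8 h to 24 h under enzalutamide alone on the x axis and under both drugs on the y axis; colours mark the course in which a gene was called, and the dashed line marks equal change. The 581 genes called in both courses lie in the quadrants of like sign, and CEL, CDKN1A and KPNA2 lie above the line and PTTG1 below it.

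The difference between the both-drug and the DMSO course was called in 440 genes (2.79%), 173 more positive (1.1%) and 267 more negative (1.7%) under both drugs. KLK3 in DMSO was at 638 ± 44 CPM at 8 h and 714 ± 102 CPM at 24 h, and the difference was -2.71 ± 0.15 (edgeR adjusted p = 8.84e-16). Androgen-induced genes differed in 21 of 48, 20 of them more negative, and DNA replication genes in 23 of 62, all more negative. INSIG1, KCNN2 and UBE2S fell under both drugs and rose in DMSO, INSIG1 there being at 136 ± 4.04 CPM at 8 h and 174 ± 17.2 CPM at 24 h (difference -0.88 ± 0.09, edgeR adjusted p = 5.22e-09). Under both drugs and in DMSO alike 12 genes rose, 2% of the both-drug risers and 13.6% of the DMSO risers, among them JUND and IER5L. The differences for JUND (-0.33, edgeR adjusted p = 0.337) and IER5L (0.39, edgeR adjusted p = 0.555) were not called.

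PLA2G5, a secreted phospholipase gene, had the most negative difference from DMSO among the named genes. It had 5, 12 and 4 counts at 8 h and 0, 0 and 1 at 24 h under both drugs, 20.8-fold lower with a 95% counting interval of 3.34 to 860, and its difference was not called in 2 of the 6 fits without a combination library (highest edgeR adjusted p = 0.0661, without the second 8 h culture). On the positive side KCNU1 differed by 2.81 ± 0.54, TP53I3 by 1.51 ± 0.26 and UGT2B11 by 1.43 ± 0.30. KCNU1 changed by 1.42 under both drugs and by -1.40 ± 0.47 in DMSO. The DMSO change was not called (edgeR adjusted p = 0.207) and was at low levels, 0.936 ± 0.3 CPM at 8 h and 0.327 ± 0.064 CPM at 24 h.

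The difference from the enzalutamide course was called in 4 genes (0.0254%), 3 more positive (0.0191%) and 1 more negative (0.00635%), with 1041 at an unadjusted p below 0.05 (6.61%). CDKN1A was at 462 ± 41.5 CPM at 8 h and 440.4 ± 8.13 CPM at 24 h under enzalutamide, and differed by 0.51 ± 0.09 (edgeR adjusted p = 0.0112). CEL, a bile salt lipase gene with a near-identical pseudogene, measured 35.6, 33.1 and 31.4 CPM at 8 h and 70.9, 62.6 and 58.8 CPM at 24 h under both drugs. Under enzalutamide it was at 22.2 ± 1.22 CPM at 8 h and 23.4 ± 2.65 CPM at 24 h, a difference of 0.85 ± 0.15 (edgeR adjusted p = 0.0112). KPNA2, a nuclear import factor, measured 214, 217 and 223 CPM at 8 h and 230.3, 224 and 238 CPM at 24 h under both drugs and 294 ± 7.22 CPM at 8 h and 241 ± 12.3 CPM at 24 h under enzalutamide (0.37 ± 0.07, edgeR adjusted p = 0.0311). PTTG1 was at 121 ± 2.43 CPM at 8 h and 108 ± 6.32 CPM at 24 h under enzalutamide and differed by -0.44 ± 0.08 (edgeR adjusted p = 0.0112). The calls changed with the libraries used. Without the first 24 h combination culture, the first 24 h enzalutamide culture, the second 8 h enzalutamide culture or the 12 libraries of the shallowest lane edgeR called 0, with 875, 863, 951 and 1062 genes at an unadjusted p below 0.05, and DESeq2 on all libraries called 21. Without the second 8 h combination culture 2 were called, and without the third enzalutamide culture of 24 h or of 8 h 11 and 10.

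KLK3 under enzalutamide was at 346 ± 17.5 CPM at 8 h and 91 ± 18.3 CPM at 24 h. Its difference of -0.61 ± 0.15 was not called (edgeR adjusted p = 0.157), nor was that of KLK2 (-0.62 ± 0.16, edgeR adjusted p = 0.205). The lack of a call does not show that the courses were alike. Among androgen-induced, androgen-repressed and DNA replication genes edgeR called 0 differences from enzalutamide, with 8 of 48, 1 of 20 and 8 of 62 at an unadjusted p below 0.05, and DESeq2 called 1, 0 and 1. Under enzalutamide 53 of the 61 mitotic genes were called lower, with a median of -0.44, against 26 and -0.27 under both drugs. PTTG1 was the 1 mitotic gene whose difference was called, 20 members were more positive and 3 more negative at an unadjusted p below 0.05, and DESeq2 called 5. CDC20 was at 119 ± 2.12 CPM at 8 h and 99.6 ± 8.91 CPM at 24 h under enzalutamide, and its difference was 0.37 (edgeR adjusted p = 0.108). Under both drugs CDC20 measured 61.7, 58.1 and 59.8 CPM at 8 h and 65, 60.9 and 68.5 CPM at 24 h. MYBL2 was at 139 ± 0.914 CPM at 8 h under both drugs and at 149 ± 5.15 CPM under enzalutamide. Each course starts from its own 8 h level, so a smaller fall does not mean a higher level. Of the 46 p53 targets CDKN1A was the 1 called, and 17 were more positive and 0 more negative at an unadjusted p below 0.05.

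The difference from the olaparib course was called in 305 genes (1.94%), 86 more positive (0.546%) and 219 more negative (1.39%) under both drugs, and in 202 without the first 8 h combination culture. KLK3 under olaparib was at 599 ± 33.1 CPM at 8 h and 643 ± 54.2 CPM at 24 h, a difference of -2.65 ± 0.15 (edgeR adjusted p = 2.06e-15). Androgen-induced genes differed in 19 of 48, DNA replication genes in 27 of 62 and mitotic genes in 24 of 61, all more negative. Mitotic genes had a median of 0.15 under olaparib alone, where 7 were called higher. CCNB1 differed by -0.40 ± 0.10 (edgeR adjusted p = 0.0197), and the difference of CDC20 was not called (-0.28, edgeR adjusted p = 0.118).

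Of the 43 genes that rose under olaparib alone 22 also rose under both drugs, 51.2% of the olaparib risers and 3.66% of the both-drug risers. They included the p53 targets CDKN1A, TP53I3, FDXR, RPS27L and BTG2. CDKN1A under olaparib was at 967 ± 23.6 CPM at 8 h and 1437 ± 33.8 CPM at 24 h, and the difference was not called (-0.13 ± 0.09, edgeR adjusted p = 0.615). The same held for TP53I3 (0.05 ± 0.21, edgeR adjusted p = 0.971) and CEL (-0.05 ± 0.15, edgeR adjusted p = 0.953). Of the 46 p53 targets 1 had a called difference, more negative under both drugs.

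**Figure D4:**
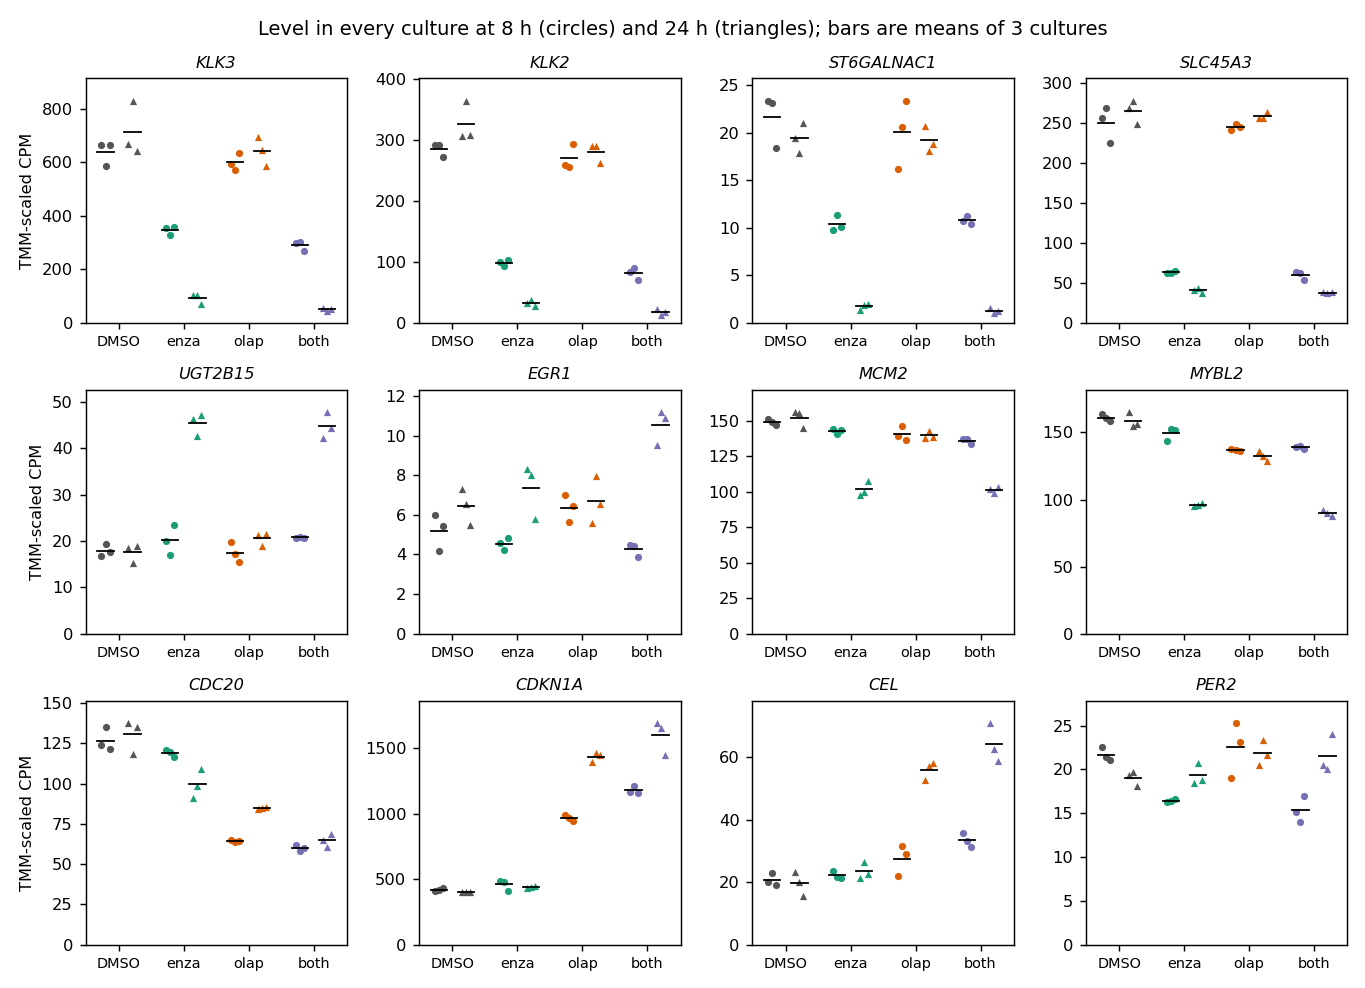
Each panel gives 1 gene in TMM-scaled CPM in every culture at 8 h (circles) and 24 h (triangles) in DMSO, enzalutamide (enza), olaparib (olap) and both drugs, with bars at the means of 3 cultures. KLK3 is at 49.2 CPM at 24 h under both drugs and 91 CPM under enzalutamide, and CDKN1A is at 1600 CPM under both drugs and 1437 CPM under olaparib.

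**Figure D5:**
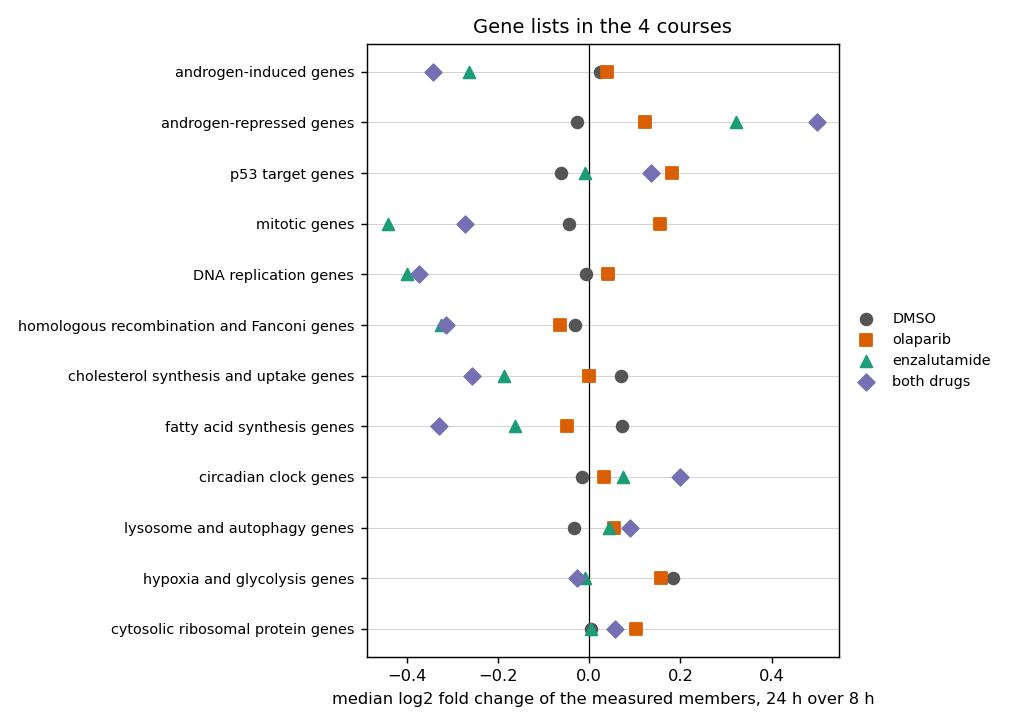
Points give the median log2 fold change from 8 h to 24 h of the measured members of 12 lists in DMSO (circles), olaparib (squares), enzalutamide (triangles) and both drugs (diamonds). DNA replication genes are at -0.37 under both drugs and -0.40 under enzalutamide, and p53 targets at 0.14 under both drugs, 0.18 under olaparib and -0.01 under enzalutamide.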

How the data were processed

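RNA-seq gene counts of 36 LNCaP libraries were analysed, in 12 groups of 3 separate cultures. The deposited table holds whole-number counts per gene. Per the file headers the authors used featureCounts v2.0.0 with Ensembl release 99 (GRCh38), requiring both mates, fragments of 20 to 5000 bases and primary alignments, without strand. STAR, DESeq2 and hg38 appear in the submitters' processing notes. Because counting ignored strand, levels of genes that share exons are uncertain. Of 60676 genes, 60357 matched a symbol and held 99.9% of the counts.

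All libraries entered 1 fit in edgeR 4.0.16 (R 4.3.3) with a mean per group, TMM scaling and the filterByExpr filter, which kept 15744 genes with 99.8% of the counts. The fit left 24 residual degrees of freedom, with biological variation of 6.44% (coefficient). A gene was called where its quasi-likelihood p, adjusted by Benjamini-Hochberg within a contrast, was below 0.05. Differences between courses are interaction contrasts. Errors are standard errors of log2 fold changes, the absolute value over the square root of F, or SDs of TMM-scaled CPM over 3 cultures. Named genes were the 14 largest called rises and falls at a mean of 1 CPM or more with no overlap, 6 each way for each difference, up to 5 called members of each of 32 lists, and a set of standard genes such as KLK3 and CDKN1A; other members named were chosen after their values were seen. Members and lists were chosen with earlier results of these data known. The fits were tested on simulated counts. Some genes that the rule picks are not reported here. Alternatives were other scalings, no filter, DESeq2 1.42.0, the compared libraries only, replicate and lane blocks and each library left out. Promoters came from RefSeq tables for GRCh38.p14. For ratios of low counts the 95% interval is the exact conditional binomial one.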

Additional observations from a re-analysis of the deposited data

Results flagged for a closer look

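A test of the difference between courses picked out 440 genes against DMSO, 4 against enzalutamide and 305 against olaparib. Against DMSO the largest named differences on the log2 scale were 2.81 for KCNU1, 1.57 for ZNF578, 1.51 for TP53I3, 1.5 for COL16A1 and 1.43 for UGT2B11 on the positive side, and -3.79 for PLA2G5, -3.12 for TRPM8, -3.07 for HPGD, -2.90 for ST6GALNAC1, -2.79 for TRGC1 and -2.75 for PHGR1 on the negative side.

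Against enzalutamide they were 0.85 for CEL, 0.51 for CDKN1A, 0.37 for KPNA2 and -0.44 for PTTG1.

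Against olaparib they were 2.66 for LRRC37A11P, 2.08 for USP6, 1.84 for RN7SL1, 1.49 for FTH1P12, 1.38 for MAN1A1 and 1.28 for ZNF578 on the positive side. Of these, LRRC37A11P (0.33) and ZNF578 (0.67) were not called in the both-drug course and changed by -2.33 and -0.61 under olaparib alone. On the negative side the differences were -4.11 for PLA2G5, -3.34 for HPGD, -3.14 for TRPM8, -2.98 for ST6GALNAC1, -2.78 for TRGC1 and -2.65 for KLK3. Each of the 6 positive calls against olaparib was lost without at least 1 of the 6 combination libraries, with highest edgeR adjusted p of 0.123, 0.0987, 0.449, 0.0883, 0.0763 and 0.141, and each of the 6 negative calls was kept in all of them. The fitted folds of PLA2G5 and HPGD rest on 1 and 4 counts at 24 h and depend on the prior count.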

How the results depend on the processing

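No gene called in the both-drug course changed sign under any setting run. The 1282 calls became 1285 with RLE or upper quartile scaling, 1135 without a filter, 1173 in DESeq2, 1675 with the compared libraries only, 1298 with the replicate block, 1382 with the lane block and 759 to 954 with 1 library left out. Of the 1282, 742 to 911 remained in those fits and 909 remained without the 12 libraries of the shallowest lane, an alternative chosen after seeing the data. Of the 135 named genes called, 92 were called in all 6 fits without 1 combination library and 43 lost the call in at least 1. Differences from DMSO numbered 298 to 404 with 1 library left out and differences from olaparib 202 to 263. For differences from enzalutamide the 4 calls became 0 to 11 with 1 library left out, 30 without a filter, 21 in DESeq2, 7 with the compared libraries only and 0 without the shallowest lane. The cause was not tested. With the replicate block the differences from DMSO, enzalutamide and olaparib numbered 432, 5 and 306. Same-numbered 8 h and 24 h cultures deviated from their group means with correlations of 0.0549, -0.0864 and 0.0320. Cultures of unlike number gave -0.117 to 0.0929. Deviations from a mean of 3 libraries hold much counting noise, so these values cannot tell whether same-numbered cultures were paired. Depth limits genes near 1 CPM, since the shallowest culture held 5392356 counts.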
